A study of Drosophila melanogaster with 3 samples.

Results

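Of the reproducible binding peaks of dmrt11E, 535 lay in distal intergenic sequence, far from every annotated start of transcription, and 6171 lay elsewhere. A peak was counted here when its summit lay over 5000 bp from the nearest annotated transcription start site (TSS) and in no gene body, with genes annotated as transposable elements left out. These peaks were 7.98% of the set (exact 95% binomial interval 7.34 to 8.65%). The rule used positions only, and no measured value. The data are ChIP-seq, in which DNA bound by a protein is precipitated and sequenced, from whole embryos of Drosophila melanogaster of both sexes, aged 2 to 10 h by the source label. There was 1 group in 3 biological replicates, all of a transgenic line whose dmrt11E ends in enhanced green fluorescent protein (dmrt11E-eGFP), and the antibody used was directed at GFP. The reproducible set was selected by its irreproducible discovery rate (IDR), and its peaks are called IDR peaks. It is drawn from a list of 30000 peaks called on the pooled replicates, and each replicate has its own list of 30000.

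The factor dmrt11E belongs to the DM-domain family, whose members bind DNA through a zinc-chelating domain that enters the minor groove; doublesex, the switch of somatic sex, is its best known member in flies. Distal intergenic sequence in flies holds many enhancers, stretches that bind several factors and act on genes at a distance, and genes that control development often have large gaps around them filled with such elements. A peak shows where tagged protein was recovered, not which gene it acts on.

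The sequences under strong sites are shown for a feature of most of the group, shared with other IDR peaks, a summit rich in A and T. The sequences from 50 bp before to 50 bp after 4 summits of high signal are given with 1 flank for contrast, all on the plus strand of assembly dm6, read from the RefSeq copy of that assembly. Capitals mark runs of at least 6 A or T letters.
summit between grim and rpr, chr3L:18348717-18348817: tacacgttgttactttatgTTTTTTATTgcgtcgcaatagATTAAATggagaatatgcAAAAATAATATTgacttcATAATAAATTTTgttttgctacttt
flank 500 bp to the right of that summit, chr3L:18349217-18349317: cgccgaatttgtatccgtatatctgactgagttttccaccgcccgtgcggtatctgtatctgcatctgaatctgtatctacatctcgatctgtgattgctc
summit between toe and eyg, chr3L:12457441-12457541: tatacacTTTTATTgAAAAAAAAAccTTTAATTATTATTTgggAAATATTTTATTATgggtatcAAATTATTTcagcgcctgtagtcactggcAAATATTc
summit between scyl and Dyro, chr3L:11261575-11261675: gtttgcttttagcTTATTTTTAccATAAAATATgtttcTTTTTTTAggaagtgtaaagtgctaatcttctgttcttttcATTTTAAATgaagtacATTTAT
summit between CG13896 and hng3, chr3L:724591-724691: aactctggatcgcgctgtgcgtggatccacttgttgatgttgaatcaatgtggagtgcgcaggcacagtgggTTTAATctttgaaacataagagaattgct
In the window between the cell death genes grim and rpr, 40 bases lay in such runs and 24.8% of the bases were G or C, against 50.5% as the mean of its flanks. The window between the Pax genes toe and eyg held 60 bases in runs and was 25.7% G or C, against 48.0% in its flanks. The scyl and Dyro window was 23.8% G or C, against 31.7% in its flanks. The window between CG13896 and hng3 went the other way, with 6 bases in 1 run and 45.5% G or C, against 44.1% in its flanks. Of 7 strong summits read, 1 other was not below its flanks, that of rank 280 between CG44362 and CG7560, at 38.6% against 35.6%.

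Summits of the distal intergenic peaks were lower in G and C than the sequence around them and also lower than the summits of other IDR peaks. The mean G and C content within 50 bp of the summit was 29.5% ± 7.40 (SD over 535 peaks), against 43.6% ± 6.74 in windows of the same width centred 500 bp to either side. Positions sampled along distal intergenic sequence averaged 40.8%, so the summits were below that sequence and the flanks above it. The summit was below its flanks at 479 of the 535 peaks and above them at 53. The difference averaged -14.1 percentage points for the IDR peaks and -3.42 for the 1666 weaker distal intergenic peaks of the pooled list, those that no IDR peak overlapped. It was -14.5 points for pooled distal peaks down to rank 6000, -9.82 from there to rank 12000, -4.77 from there to rank 18000 and -0.49 from there to rank 24000. The replicates' own distal peaks gave -11.0, -13.0 and -14.7 points in replicates 1, 2 and 3, a mean of -12.9 ± 1.89 (SD, n = 3), taken over as many of the highest peaks of each replicate as the IDR set holds, its top peaks. Runs of A and T took 30.7 ± 15.1 bases of the summit window and 14.7 ± 9.29 bases of the flanks, against 29.9 and 13.8 bases at other IDR peaks, and 17.0 ± 14.7 bases of windows placed every 1000 bp along distal intergenic sequence. These summit and flank differences are descriptions, added after the data were seen.

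**Figure D1:**
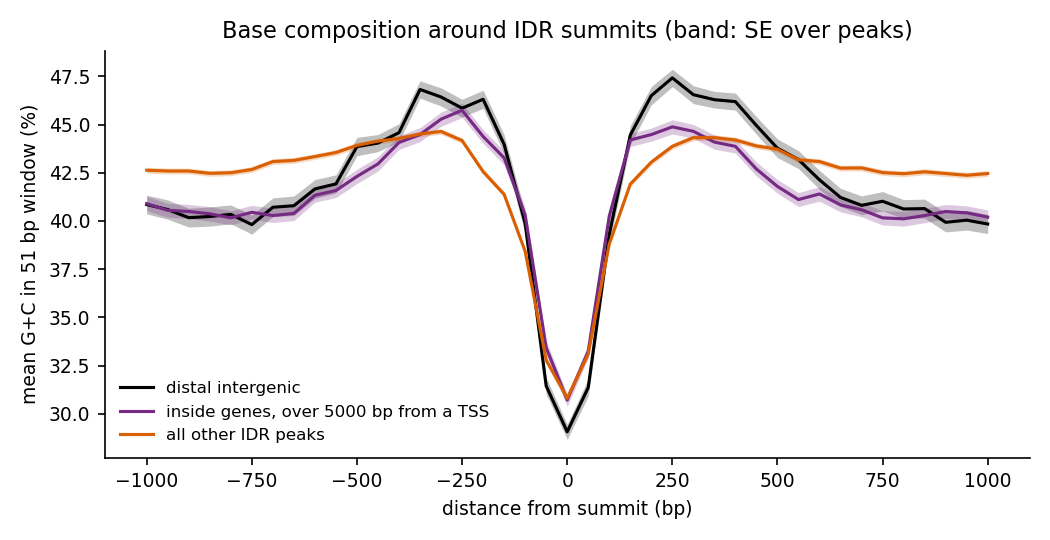
Mean G and C content (%) in 51 bp windows against the distance from the summit (bp), for distal intergenic IDR peaks, IDR peaks inside genes over 5000 bp from a TSS, and all other IDR peaks; bands are the standard error over peaks. The distal intergenic peaks reach 29.1% at the summit, against 30.7% inside genes and 30.8% at all other IDR peaks, and stand at 46.3% and 46.5% at 200 bp to either side.

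The summits themselves were lower in G and C than those of other IDR peaks, by a small margin. The summit window of other IDR peaks averaged 31.3% G and C, so the distal intergenic peaks were lower by 1.80 percentage points (standard error 0.339, permutation test with 100000 resamples, two-sided, adjusted p = 0.00026 over 13 comparisons). Against the 885 IDR peaks inside gene bodies over 5000 bp from a TSS, which averaged 31.3%, the difference was -1.81 points (standard error 0.421, permutation test, adjusted p = 0.00033). Against the 2487 intergenic IDR peaks within 5000 bp of a TSS, which averaged 30.7%, it was -1.19 points (standard error 0.370, permutation test, adjusted p = 0.015). The dip below the flanks, -14.1 points at the distal intergenic peaks, was -12.45 at all other IDR peaks, -10.8 inside genes and -14.3 at intergenic peaks nearer to a TSS, so it was not deeper than in the last class, and these differences were not tested. For summit content, every replicate gave the same sign among its top peaks, with 31.9% against 34.3% in replicate 1, 30.2% against 31.9% in replicate 2 and 29.3% against 30.4% in replicate 3, a difference of -1.70 ± 0.644 points (SD, n = 3). Among the IDR peaks of above-median signal the difference was -0.789 points and did not pass (permutation test, p = 0.12). The peaks compared share their libraries, so these tests compare peaks and not embryos, and spreads between replicates measure these 3 samples.

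The strongest distal intergenic peaks were high in every replicate. The highest lay between Su(z)2, a Polycomb group gene, and CG13323, at chr2R:13035135-13035534, with a pooled signal value of 3999.8 and rank 27 among the IDR peaks. It ranked 26, 29 and 40 in replicates 1, 2 and 3, and its summit lay within 1 bp of the replicate summits. A peak on the other side of the same cluster, between CG13321 and Psc, another Polycomb group gene and a paralog of Su(z)2, spanned chr2R:12959097-12959672 with a signal of 3203.0. Its pooled rank was 60, and its ranks in replicates 1, 2 and 3 were 132, 106 and 29, highest in replicate 3. The peak between CheA75a, of a chemosensory protein family, and CG5103, at chr3L:18281218-18281663, had a signal of 3351.6 and rank 49, and it ranked 57, 45 and 51 in the replicates.

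A pair of peaks stood between CG13896 and hng3. The first, at chr3L:724336-725182, ranked 65 with a signal of 3118.3 and 39, 74 and 90 in replicates 1, 2 and 3. The second, at chr3L:725830-726228, ranked 126 with a signal of 2371.0 and 96, 155 and 142 in the replicates. Between CG13334 and CG42807, at chr2R:13566132-13566579, the peak of rank 61 had a signal of 3195.5 and ranked 67, 63 and 54. All 3 stayed within the 155 highest peaks of every replicate.

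The peak between grim and rpr, activators of programmed cell death, spanned chr3L:18348554-18348999, 24782 bp from the nearest TSS and 44350 bp and 48768 bp from the 2 coding genes. Its signal was 2055.3 and its pooled rank 201, with ranks 269, 210 and 155 in the replicates. The peak at chr3L:12457259-12457700, 5046 bp from the end of eyg and 10530 bp from its TSS, ranked 238 with a signal of 1879.3, and 317, 356 and 157 in the replicates.

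The remaining 6 of the 15 strongest ranked between 280 and 412. Between CG44362 and CG7560 lay the peaks of rank 280 (chr3L:11418426-11418722) and 387 (chr3L:11415376-11415741), which ranked 251, 283 and 311, and 306, 410 and 463, in replicates 1, 2 and 3. The peak of rank 317 (chr3L:11261382-11261797) lay 5453 bp from scyl, a growth inhibitor of the stress response, and ranked 422, 271 and 312. On the X, the peak of rank 398 (chrX:3355163-3355575) lay between dnc, a cyclic AMP phosphodiesterase gene, and Myc, a growth regulator, and ranked 352, 362 and 509. The peak of rank 409 (chr2R:8644212-8644572) lay 5264 bp from ptc, the Hedgehog receptor gene, and ranked 320, 360 and 550. Rank 412 (chr2L:19226369-19226715) was a peak 17903 bp from drl, a Wnt5 receptor gene of axon guidance, with ranks of 467, 422 and 411. All 15 were overlapped by a top peak of every replicate.

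**Figure D2:**
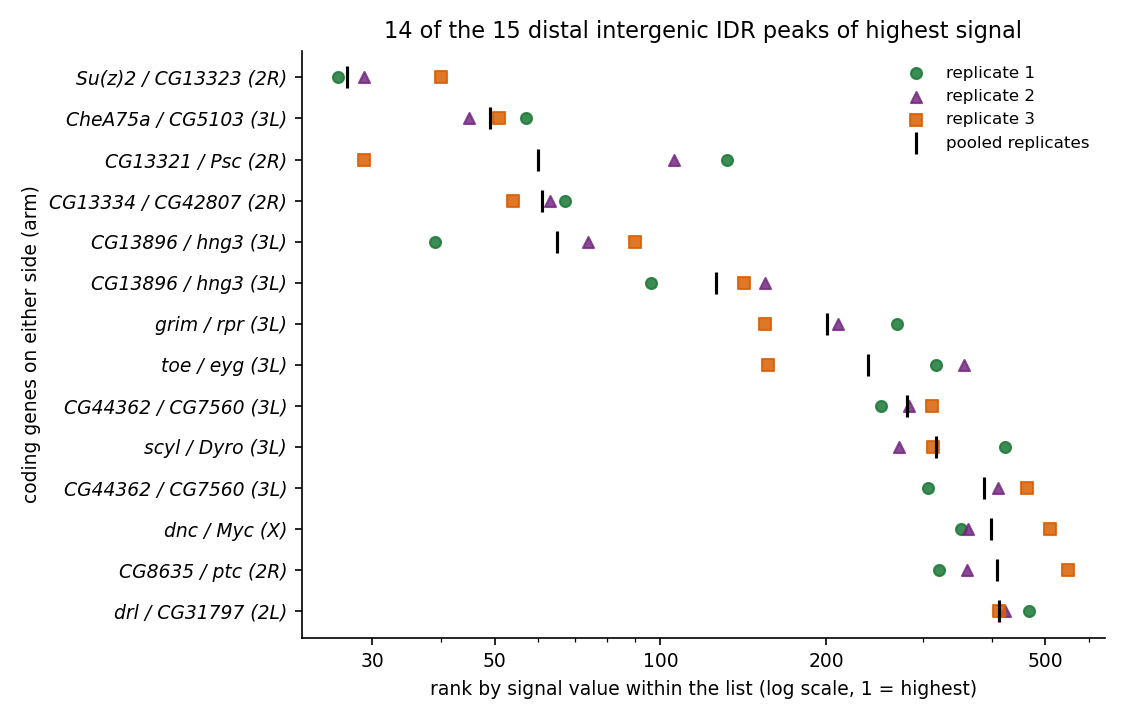
Rank by signal value within each list (log scale, 1 is the highest) for 14 of the 15 distal intergenic IDR peaks of highest signal, named by the coding genes on either side; symbols are the 3 replicates and the bar is the pooled list. The peak beside Su(z)2 lies between ranks 26 and 40 in the replicates, and the peak beside Psc between 29 and 132.

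Taken over all 535, support from the replicates did not differ detectably from that of other IDR peaks. A top peak of every replicate overlapped 255 of them reciprocally by at least 50%, or 47.7% (exact 95% interval 43.4 to 52.0%), against 46.7% of other IDR peaks (odds ratio 1.04, 95% interval 0.866 to 1.24, Fisher's exact test, adjusted p = 0.70) and 46.8% of all IDR peaks. By replicate, 61.1% were overlapped in replicate 1, 73.1% in replicate 2 and 428 of the 535 in replicate 3. Of other IDR peaks, 63.96%, 76.11% and 76.18% were overlapped in replicates 1, 2 and 3. The distal intergenic share was thus lower in replicates 1 and 2 and higher in replicate 3, and these differences were not tested. Some overlapping peak was listed in all 3 replicates for 516, and none in replicate 1 for 11, in replicate 2 for 7 and in replicate 3 for 2. The summits lay a median of 22, 16 and 9 bp from the matched summits of replicates 1, 2 and 3.

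Signal ranks also spread over the whole IDR list. The 535 peaks had a median rank of 3184 and a median signal of 339.2, with quartiles of 221.7 and 527.7. Their mean rank was 3410.3, against 3348.6 for other IDR peaks, a difference of 61.8 places (standard error 84.2, permutation test, two-sided, adjusted p = 0.66). Among the IDR peaks of above-median signal the distal intergenic peaks stood 173.5 places lower in strength on average (permutation test, p = 0.0048), and the difference of medians had the other sign, at -178 places (permutation test, p = 0.24). The 1000 highest IDR peaks held 60 of them, 11.2% of the 535, against 15.2% of other IDR peaks. The share was 11.5% for IDR peaks inside genes over 5000 bp from a TSS and 14.0% for intergenic IDR peaks nearer to a TSS. These shares were not tested. The distal intergenic peaks were narrower than other IDR peaks, at 306.6 bp on average against 320.7 bp (difference -14.1 bp, standard error 4.86, permutation test, adjusted p = 0.015), a comparison added after the data were seen. The upper quartile of width was 404 bp in both sets, a width that recurred in the list. How far this repeated width moved the means was not tested. Intergenic IDR peaks nearer to a TSS averaged 325.5 bp (difference -18.8 bp, permutation test, adjusted p = 0.0012), but IDR peaks deep inside genes 302.8 bp, from which the distal intergenic peaks did not differ detectably (difference 3.87 bp, standard error 5.91, permutation test, adjusted p = 0.66).

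Distal intergenic summits took about the same share of strong and weak peaks. Of the 2270 distal intergenic peaks in the pooled list, 23.6% were in the IDR set (exact 95% interval 21.8 to 25.4%), against 22.4% of all pooled peaks. They made up 7.98% of IDR peaks and 7.51% of the 22192 weaker pooled peaks (odds ratio 1.07, 95% interval 0.963 to 1.18, Fisher's exact test, adjusted p = 0.34). Against the next pooled peaks alone, down to rank 12000, the odds ratio was 1.18 (Fisher's exact test, p = 0.025), and with protein-coding genes alone as the annotation it was 1.10 (p = 0.022). Among the replicates' top peaks the share was 7.40%, 7.67% and 8.16% in replicates 1, 2 and 3, a mean of 7.74% ± 0.386 (SD, n = 3). Distal intergenic sequence, 21.9 Mb in all, was 16.0% of the placed bases, so its share of the peaks was 0.499 times its share of the sequence, and 0.536 times with the Y left out.

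**Figure D3:**
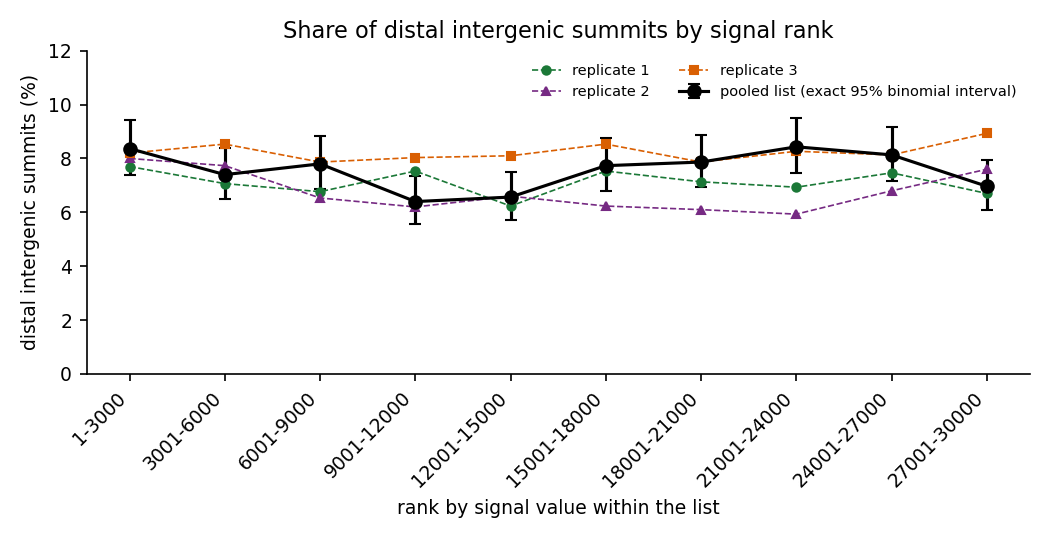
Share of summits in distal intergenic sequence (%) by rank in bins of 3000 peaks, for the pooled list with exact 95% binomial intervals and for each replicate list. The pooled share lies between 6.40% and 8.43% over the bins.

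The peaks lay a median of 8794 bp from the nearest TSS, 220 of them over 10000 bp and 44 over 20000 bp away. The nearest TSS belonged to a protein-coding gene for 357 and to a noncoding gene for 178. The farthest, at chr2L:20204737-20204948 between CG10651 and CG17571, was 43223 bp from a TSS and had rank 2552, and 2553, 2175 and 3022 in the replicates. The next, at chr3R:3789555-3789958, was 39394 bp away and ranked 6347, with no overlapping peak in replicate 1 and ranks of 8668 and 4966 in replicates 2 and 3. Just inside the limit were peaks 5003 bp from tei (rank 2436) and 5006 bp from Tollo (rank 1795). Just outside it were intergenic IDR peaks 4986 bp from lncRNA:CR46197 (rank 6555) and 4981 bp from rpr (rank 1199).

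Most of the peaks shared a gap between genes with another. The 535 peaks lay in 247 gaps, and 402 of them (75.1%) were in a gap with at least 1 other. The same count is not given here for weaker distal intergenic peaks. Whether sharing a gap was particular to the IDR peaks was not tested. There were 133 gaps with 1 peak, 46 with 2 and 68 with 3 or more, and 29 gaps with 5 or more held 176 peaks. Of the 1004 gaps over 10000 bp between annotated genes, 222 held a peak. Summits of neighbouring peaks lay within 5000 bp of each other in 214 of 529 neighbouring pairs and within 1000 bp in 52, and merging overlapping peaks left 523 regions.

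Gaps with 7 or more peaks numbered 7, and 5 of them are described, with ties at 7 peaks settled by summed signal. The gap with the most peaks, 10 in 70507 bp, lay beside vvl, a POU homeobox gene of trachea and nervous system. Its strongest peak ranked 537 with a signal of 1229.5 and 679, 452 and 579 in replicates 1, 2 and 3, and its weakest ranked 6463. Only 3 of the 10 were in every replicate, that is, overlapped reciprocally by at least 50% by a top peak of each. The gap of 75047 bp between NijA, an adhesion gene of the ninjurin family, and CG43245 held 9 peaks within 25054 bp, of which 3 were in every replicate, and its strongest ranked 1296, and 1641, 1522 and 1062 in the replicates. Between the Wnt ligand genes Wnt4 and wg, 7 peaks lay within 8088 bp of a gap of 29987 bp, and 5 of them were in every replicate. The strongest of these ranked 513 with a signal of 1254.5 and 503, 663 and 456 in the replicates, and the next ranked 799, and 1060, 879 and 698 in the replicates.

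The gap of 49120 bp whose coding neighbours are comm, which sorts the axon guidance receptor Robo, and CG6244 held 7 peaks. Only 2 of the 7 were in every replicate. The strongest in this gap ranked 694, and 902, 876 and 517 in the replicates, and the next ranked 754, and 734, 717 and 846. In the 56125 bp between Tollo, a Toll family receptor gene, and Best4, a bestrophin gene, lay 7 peaks, 3 of them in every replicate. The strongest ranked 701, and 744, 700 and 663 in replicates 1, 2 and 3. In the gaps beside vvl, wg, comm and Tollo the strongest peak was matched to a peak among the 902 highest of every replicate, although beside comm and Tollo 1 of the 3 matches did not reach the reciprocal overlap of 50%.

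**Figure D4:**
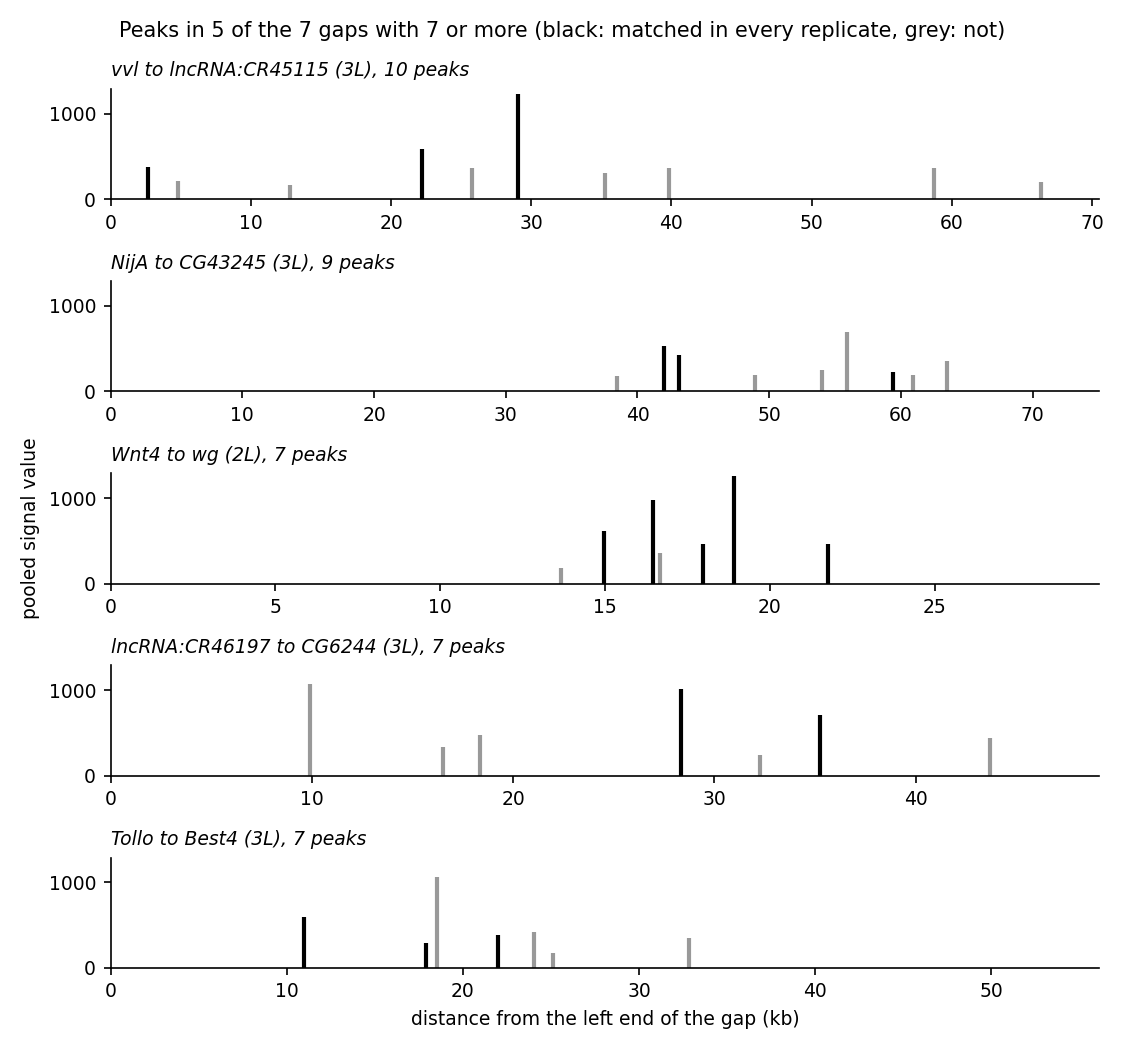
Pooled signal value against the distance from the left end of the gap (kb) for 5 of the 7 gaps with 7 or more distal intergenic IDR peaks (5 gaps tie at 7, and the 3 of highest summed signal are shown), each named by the genes at its ends; black lines are peaks overlapped by a top peak of every replicate, grey lines are not. The 7 peaks between Wnt4 and wg lie within 8088 bp, and the 10 peaks beside vvl within 63723 bp.

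Genes that control development stood beside many of the peaks. A listed gene was counted when it was the nearest protein-coding gene on either side. Of the 535 peaks, 206 (38.5%, exact 95% interval 34.4 to 42.8%) had a transcription factor gene of 3 lists there, as did 32.5% of weaker distal intergenic peaks and 11.0% of distal intergenic sequence. The lists were chosen with earlier results of these data known and carry no test. Sequence shares cover all arms, with the Y, 9.15% of that sequence with 0 IDR peaks, and transposable elements, 13.6% of sampled positions, left in. Peaks in 1 gap share their neighbours, so the counts are not independent.

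Homeobox genes neighboured 111 peaks (20.7%), against 14.9% of weaker distal peaks and 5.57% of the sequence, and the replicates gave 19.98% ± 1.86 (SD, n = 3). Of the 56 homeobox genes that border distal intergenic sequence, 32 had a peak beside them (57.1%). The share was 55.6% for bHLH, Sox, T-box, forkhead and GATA genes, 57.9% for zinc finger and nuclear receptor regulators and 51.6% for signalling genes. In the remaining lists it was 0 to 20.5%, except for the E(spl) and Bearded genes, at 2 of 2. The share over all coding genes that border such sequence is not given here. The most peaks stood beside vvl and ems, a head gap gene, with 10 each, beside oc, another head gap gene, and B-H2, a sensory organ gene, with 9 each, and beside Dr, hth and B-H1 with 8 each. The 8 beside B-H1 lay between it and B-H2 and were counted for both. In every replicate were 3 of those beside vvl, 7 beside ems, 6 beside oc, 1 beside B-H2, 6 beside Dr, 4 beside hth and 1 beside B-H1. The strongest after the peak at eyg lay 6080 bp from oc, at chrX:8656573-8656948, and ranked 440, with 329, 505 and 520 in the replicates. With the gene of the nearest TSS alone, the homeobox share was 10.3%.

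Genes of the bHLH, Sox, T-box, forkhead and GATA families neighboured 48 peaks (8.97%), against 8.16% of weaker distal peaks and 1.57% of the sequence. The T-box gene mid, of heart and nervous system, had 9 beside it, and the Sox gene D, the T-box genes Doc1 and Doc2 and croc had 6 each. Signalling ligands and receptors neighboured 50 (9.35%), against 8.76% and 2.03%, with 10 beside Tollo and 8 each beside wg and the Toll family gene 18w. Zinc finger and nuclear receptor regulators, listed together with the runt family genes RunxA and run, neighboured 47 (8.79%), against 9.36% and 3.88%. The strongest of these lay 2546 bp from sens-2, at chr2L:6841376-6841736, ranking 456, and 356, 384 and 666 in the replicates. The next lay 5743 bp from scrt, a snail family gene of neurons, at chr3L:3977986-3978327, and ranked 678, with 724, 544 and 855 in the replicates. In each of these 3 lists the interval of the IDR peaks covered the share of the weaker peaks.

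Genes of the remaining lists neighboured few peaks. Neuronal cell-surface and guidance genes neighboured 14 peaks (2.62%, exact 95% interval 1.44 to 4.35%), against 2.76% of weaker distal peaks and 7.93% of the sequence. The strongest of these lay beside dpr17, rank 1219, and DIP-delta, rank 1291, both of the immunoglobulin superfamily. Neurotransmitter receptors and ion channels neighboured 7 (1.31%, against 1.02% and 1.82%), led by peaks of ranks 2564 and 3464 on either side of the sodium channel gene ppk. Chemosensory receptor and odorant-binding genes also neighboured 7 (1.31%, against 2.28% and 2.54%), led by a peak between Obp56g and Obp56h at rank 2672 and one beside Or85b at rank 2790. Cuticle protein genes neighboured 2 (0.374%, against 0.840% and 0.146%), beside Cpr35B at rank 1968 and between tll and Cpr100A at rank 6029. The E(spl) and Bearded genes, targets and modulators of Notch signalling, neighboured 2 (0.374%, against 0.180% and 0.0457%), both between BobA and Tom, at ranks 525 and 1567. For channel and chemosensory genes the exact 95% interval, 0.528 to 2.68% in both, covered the share of the sequence. Ribosomal protein genes neighboured 0 of the 535, where 3 counts would be 0.561% and the exact 95% interval reaches 0.687%, against 0.0600% of weaker distal peaks and 1.91% of the sequence. Of the 92 ribosomal protein genes, 9 border distal intergenic sequence.

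**Figure D5:**
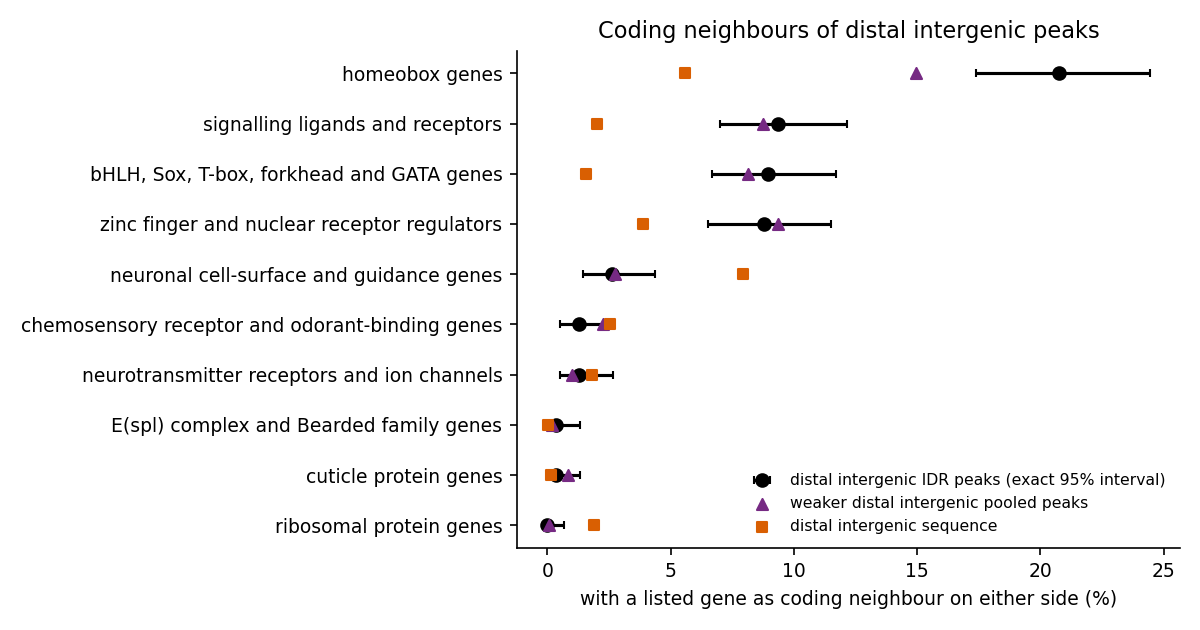
Share (%) with a listed gene as the nearest protein-coding gene on either side, for distal intergenic IDR peaks (points with exact 95% binomial intervals), weaker distal intergenic peaks of the pooled list (triangles) and distal intergenic sequence sampled every 1000 bp (squares). Homeobox genes stand beside 20.7% of the IDR peaks, 14.9% of the weaker peaks and 5.57% of the sequence.

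The peaks were unevenly spread over the chromosome arms. Arm 3L held 193 of them (36.1%), or 35.3 per Mb of distal intergenic sequence (exact 95% Poisson interval 30.5 to 40.7), followed by 2L with 34.3, 3R with 30.3 and X with 22.4 per Mb. Arm 2R held 56, or 12.2 per Mb (9.24 to 15.9). The whole pooled list was uneven too, with 767 distal intergenic peaks on 3L and 285 on 2R. Of the pooled distal peaks, 25.2% on 3L and 19.7% on 2R were in the IDR set, with 22.8% on 2L, 26.0% on 3R and 21.0% on X. Annotated transposable elements took 19.5% of the distal intergenic sequence of 2R and 13.8% of that of 3L. Outside them the densities of distal intergenic IDR peaks were 15.2 and 41.0 per Mb. Chromosome 4 held 1 peak, and the Y, with 2.00 Mb of such sequence, held 0 IDR peaks of any class. A single member had its summit in an annotated transposable element (0.187%), against 0.292% of other IDR peaks and 13.6% of distal intergenic positions, so such summits were rare in the whole IDR set. Intervals here cover counting error only.

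The DM core motif was rare at the summits. The DM core ACAATGT, searched on both strands, lay within 50 bp of 13 summits (2.43%), in 1.50% of the flanks (exact McNemar test, adjusted p = 0.20 over 37 motifs), at 1.91% of other IDR summits (Fisher's exact test, adjusted p = 0.66) and in 1.77% of distal intergenic windows of the same length. Flank percentages of motifs are means over both flanks, while each McNemar test used 1 flank drawn by a seeded coin. For the DM core the summit alone held the motif at 13 peaks and the drawn flank alone at 4. The drawn flanks held it less often than the 1.50% mean of both flanks, so the flanks not drawn held it more often. The contrast of 13 to 4 therefore depends on the draw. Over all IDR peaks, with more summits to compare, the DM core was more frequent at summits than in flanks (exact McNemar test, adjusted p = 0.0011), at 1.91% against 1.35% for the IDR peaks outside the distal intergenic class. The replicates' distal peaks gave 2.06% ± 0.142 (SD, n = 3). Of the 37 motifs, 0 were more frequent at the summits than in the flanks by the adjusted test and 3 at an unadjusted p under 0.05, while at all IDR summits 37.8% of the motifs were higher and 35.1% lower. The number of peaks differs, and the difference between these counts was not tested. The 2 that were lower were GAGAG, bound by Trl and CLAMP, at 6.36% of summits against 12.9% of flanks (exact McNemar test, adjusted p = 0.0051), and the CA repeat CACACACA, at 0.187% against 2.90% (adjusted p = 0.0051). These 2 motifs lay in 11.4% and 1.70% of distal intergenic windows. Summits held less G and C than flanks, at 29.5% against 43.6%, and at other IDR peaks 31.3% against 43.8%. The motif tests against flanks made no allowance for that, so they cannot tell a motif from its base composition. Both calls ended with windows of 25 bp on either side or flanks 1000 bp away, where 0 motifs passed.

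Against other IDR peaks, CGATA and the DRE that contains it were rarer at the distal intergenic summits. CGATA, the core bound by BEAF-32, was at 9.16% of them against 14.4% of other IDR summits (Fisher's exact test, odds ratio 0.599, p = 0.020 after adjustment) and in 11.0% of distal intergenic windows. The DRE, TATCGATA, which contains CGATA and is bound by Dref, was at 0 of 535, where 3 counts would be 0.561%, against 1.30% (Fisher's exact test, adjusted p = 0.034) and 0.224% of distal windows. AGGATAA, bound by ttk, a repressor of neural fate, was at 2.43% against 0.908% (Fisher's exact test, odds ratio 2.72, p = 0.034 after adjustment) and in 1.05% of distal windows, with 2.57% ± 0.152 in the replicates (SD, n = 3). The motif of the insulator protein CTCF, GGNGGCGC, was at 1.12% against 0.648%, and that of su(Hw), TGCATANTT, at 1.68% against 1.67%, and neither passed (Fisher's exact test, adjusted p = 0.66 for CTCF and 1 for su(Hw)). So 2.7% of the motifs were higher and 5.41% lower in this comparison. Against intergenic IDR peaks nearer to a TSS, CGATA (17.7%, adjusted p = 1.4e-05) and the DRE (2.21%, Fisher's exact test, adjusted p = 0.00076) were again lower. Against IDR peaks deep inside genes no motif passed the Fisher's exact test, and 5 had an unadjusted p under 0.05. The number that passed against other IDR peaks lay between 0 and 1 without replicate 1, 2 or 3, settings that keep 332, 286 and 287 of the 535.

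Short words rich in A and T were more frequent at the summits than in their flanks, which held more G and C. Six-letter words were ranked on arms 2L and 2R and chromosome 4 by the ratio of summits to flanks, and the 10 highest were tested on the 371 peaks of the other arms. Of these 10, 9 passed. AATATA was at 30.5% of the tested summits against 8.89% of flanks (exact McNemar test, adjusted p = 4.9e-09), and TATAAA at 30.5% against 11.6% (adjusted p = 1.3e-08). AATACT had the highest ratio there, at 12.4% against 3.10% (exact McNemar test, adjusted p = 0.00066). ATAGTA, at 7.28% against 3.50%, did not pass (exact McNemar test, adjusted p = 0.17). Each of the 10 words holds at most 1 G or C, and the median ratio over all words was 2.53 for those with none and 2.07 for those with 1, so the base composition moved with the words. At other IDR summits AATATA was at 28.1% and TATAAA at 26.5%.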

How the data were processed

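The authors deposited peak lists on assembly dm6 for each of 3 replicates and for their pool, all called against 1 control, and an IDR set, per the file headers. The signal value and −log10 q per peak are the authors' values; signal ranked peaks within a list and −log10 q was not tested. Aligner, peak caller and read depth are each not given in the sources used here, so precision rests on the number of peaks and the replicates. Embryos lacking the tag were not analysed here. Classes of summits were set with Ensembl release 115 genes (BDGP6.54), and sequence came from the RefSeq copy of the assembly. Overlap with the top peaks of a replicate, as many as the IDR set holds, was reciprocal at 50%. Flanks were centred 500 bp away. Exact McNemar tests of motifs used 1 flank on a side drawn by a seeded coin, and flank percentages and ratios used both flanks.

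The members, lists, motifs and alternatives were chosen with earlier results of these data known. Named peaks are the 15 of highest signal (1 of them is not reported here), the 5 fullest gaps (ties by summed signal), the 2 strongest per gene list, those nearest the limit and the 2 farthest. Sequences are 4 of the 8 strongest off 1 arm, with 1 flank; these 4, the flank and the capitals were chosen after the values were seen. Of the list entries, 4 did not match the annotation. Fisher's exact tests, permutation tests and exact McNemar tests were adjusted by Benjamini-Hochberg at 0.05 within each family; p-values of alternative settings are unadjusted except for motifs. Alternatives changed the TSS distance, annotation, overlap, windows, flanks, peak subset and replicates used. Summit against flank content, A and T runs, peak width and density outside transposable elements were added after seeing the data. Procedures were tested on simulated data. Python 3.11.15, numpy 2.4.6, scipy 1.17.1, pandas 2.3.3 and matplotlib 3.10.9 were used.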

Additional observations from a re-analysis of the deposited data

How the results depend on the processing

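The distal intergenic share was 12.9% with a TSS distance of 2500 bp, 3.28% with 10000 bp, 13.4% with coding genes only and 7.19% with transposable element genes counted, and 7.70 to 8.17% otherwise. The odds ratio against weaker pooled peaks rose to 1.18 against the next pooled peaks to rank 12000 and 1.10 for coding genes only, and passed in both. The lower G and C content against other IDR peaks kept its sign in 11 alternatives, at -2.27 to -1.18 points where it passed and -0.789 among peaks of above-median signal, where it did not. The rank difference, 61.8 places, was -79.2 at 10000 bp, -178 for medians and 173.5 above the median signal, and passed only in the last; without 1 replicate it was -164.4 to 56.3. The odds ratio of replicate support, 1.04, was 0.976 with any overlap, 0.988 for the top 10000 peaks, 0.995 with transposable element genes and 0.919 to 1.05 without 1 replicate, and never passed. Motif counts were the least stable. Against flanks, where 2 passed, 6 passed at 2500 bp and with windows of 100 bp, 4 with coding genes only, 1 above the median signal, 0 at 10000 bp, with windows of 25 bp or with flanks at 1000 bp, and 0 to 1 without 1 replicate. Against other IDR peaks, where 3 passed, 5 passed at 2500 bp, 1 above the median signal, 0 at 10000 bp, with windows of 25 bp or against peaks deep inside genes, and 0 to 1 without 1 replicate. Settings that keep fewer peaks have less power, and beyond that the cause was not tested. The DM core odds ratio against other IDR peaks, 1.28, was 0.956 with windows of 100 bp, 1.98 with windows of 25 bp and 0.939 to 1.24 without 1 replicate, and its ratio to flanks, 1.62, was 1.33 to 2.25; neither passed in any setting. With the nearest TSS alone the list shares were 10.3% for homeobox genes, 2.99% for the bHLH to GATA families, 3.74% for zinc finger regulators, 5.98% for signalling genes and 0.187% each for chemosensory and channel genes. Outside transposable elements the density on 3L was 41.0 per Mb. No paired analysis was possible because there is 1 group.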
